A study of Mus musculus with 32 samples.

Results

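The arrays compared here were hybridised with the polysomal pool of RNA from untreated cells, the mRNA that sedimented with several ribosomes on a sucrose gradient. 2 arrays came from E1KD cells, a derivative in which hnRNP E1 was silenced, and 2 from NMuMG cells, the mouse mammary gland epithelial line from which E1KD was derived. These 4 of the 32 arrays of the series were chosen by their labels alone, and neither group had received TGFβ or the inhibitor LY294002. The methods of the study give a medium with serum and insulin for NMuMG cells and name no separate medium for E1KD cells. Whether E1KD is 1 clone is not given in the sources used here. Total RNA and the monosomal (non-translating) pool of the same lines, and the pools after 24 h with 5 ng/ml TGFβ2, were used for comparison, each with 2 arrays per line. The labels call the arrays of a group biological replicates but do not say how the cultures were kept apart. The p-values therefore measure only the spread between such arrays, pooled over the 24 arrays (12 conditions) of polysomal, monosomal and total RNA.

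hnRNP E1, encoded by Pcbp1, is an RNA-binding protein of the KH-domain family that binds C-rich stretches of mRNA. In epithelial cells it is known to hold certain mRNAs of the epithelial-mesenchymal transition (EMT) out of translation until TGFβ signalling leads to its phosphorylation. An mRNA's signal in a polysomal pool follows both how much of it the cell holds and how well ribosomes load onto it, and the array reports RNA, not protein.

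All values are log2 signals after robust multi-array averaging (RMA), a difference is E1KD minus NMuMG, and 1 unit is a 2-fold change. Of 45101 probe sets, 25432 were tested, those above 5.52 (the median over all probe sets and arrays) in 8 or more arrays, with limma at an adjusted p of 0.05. In the untreated polysomal pool 7004 probe sets (27.5%) were higher in E1KD cells and 5628 (22.1%) were lower, 49.7% in all. With a 2-fold change required as well, 3498 (13.8%) were higher and 1459 (5.74%) lower. By gene, with 1 probe set for each of 12600 genes, 3618 (28.7%) were higher, 3246 (25.8%) lower, and the median difference was -0.05.

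The replicate arrays correlated at r = 0.9886 in E1KD and 0.9826 in NMuMG cells over these probe sets, and the group means of the lines at 0.917. Their mean absolute gap was 0.238 in E1KD and 0.307 in NMuMG polysomes, against 0.133 and 0.122 in untreated total RNA. The 3′ minus 5′ signal of the Actb control probe sets, a measure of RNA integrity, was 0.66 and 0.55 in E1KD and 0.65 and 0.81 in NMuMG polysomes, where the groups overlapped. That of Gapdh was 0.13 and 0.05 in E1KD against -0.04 and -0.01 in NMuMG polysomes, where they did not. Epithelial markers were abundant in both lines, with a summed log2 signal of 15.69 to 15.73 in E1KD and 15.62 to 15.66 in NMuMG cells and 8 of 11 markers above 5.52 in both E1KD arrays and 10 of 11 in both NMuMG arrays. The leukocyte-defining genes Ptprc and Itgam and the endothelial genes Pecam1, Cdh5, Tek and Emcn stayed below 5.52 in both lines, while the endothelial gene Kdr was at 6.66 and 6.09 in E1KD and 6.64 and 6.96 in NMuMG cells. The summed signal of mesenchymal markers was 14.82 to 14.85 in E1KD and 13.82 to 13.94 in NMuMG cells, while the fibroblast collagens Col1a1 and Col3a1 were below 5.52 in both. The collagen gene Col1a2 was above it on all 4 arrays, at 6.05 and 5.59 in E1KD and 6.50 and 6.88 in NMuMG cells, and the fibroblast marker Pdgfra was at 5.14 and 5.59 in E1KD and 6.68 and 6.33 in NMuMG cells. The summed leukocyte signal was 9.70 to 9.94 in E1KD and 8.87 to 9.01 in NMuMG cells. In each line 3 of 6 measured leukocyte markers were above 5.52. Of these markers only Cd68 was higher on both E1KD arrays, at 9.06 and 9.46 against 7.15 and 7.06 in NMuMG cells. Csf1r was lower, at 7.38 and 7.09 in E1KD against 7.56 and 7.8 in NMuMG cells, and the Cd3e arrays overlapped. The summed signal of basal markers was 9.85 to 9.95 in E1KD and 8.25 to 8.34 in NMuMG cells. Its largest difference was in Acta2, at 9.47 and 9.4 in E1KD against 6.14 and 6.0 in NMuMG cells. Myh11 and Oxtr were higher in E1KD by less, close to 5.52. The basal genes Krt17 and Trp63 were below 5.52 in both lines. Krt5 was above it, at 6.43 and 6.11 in E1KD and 6.25 and 6.26 in NMuMG cells. The part of these markers and of the Gapdh signal in the results was not tested. In bulk RNA of this kind, a change in the share of cells of a type and a change in RNA per cell cannot be told apart.

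Pcbp1 itself was at 9.98 and 10.07 in E1KD polysomes, against 13.15 and 13.25 in NMuMG polysomes. The arrays did not overlap, and the difference was -3.175 (SE 0.103, limma adjusted p = 1.83e-12), a 9.03-fold lower signal. Of the other members of the poly(C)-binding family, Pcbp2 was at 13.51 and 13.48 in E1KD against 13.56 and 13.70 in NMuMG cells and did not pass the test on that probe set, its brightest (adjusted p = 0.296). Of its 2 other probe sets, 1 was at 0.145 and did not pass, and 1 rose by 0.50 (adjusted p = 0.0392) but no longer passed without E1KD array 2 (0.35) or without NMuMG array 2 (0.39). Pcbp3 fell by 0.51 and Pcbp4 by 0.38, each on the probe set of highest mean signal, though Pcbp4 no longer passed without E1KD array 1 (-0.27) or without NMuMG array 2 (-0.36). Hnrnpk, the related hnRNP K, rose by 0.70 on 1 probe set, while its 3 other probe sets did not pass.

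Among the 15 largest increases, Ptgs2, the inducible cyclooxygenase, was at 11.37 and 11.35 in E1KD polysomes and at 5.49 and 5.43 in NMuMG polysomes. Map2, a microtubule-associated protein best known from neurons, was at 9.82 and 9.78 in E1KD and 3.99 and 3.72 in NMuMG cells. Lhfp, a tetraspan membrane protein, had the largest difference of the 15, with 10.73 and 10.85 in E1KD against 4.85 and 4.53 in NMuMG cells. For Map2 and Lhfp the NMuMG arrays lay well below 5.52, and for Ptgs2 just below it.

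Hexa, the alpha subunit of lysosomal hexosaminidase, was 40.8-fold higher in E1KD polysomes, at 12.32 and 12.48 in E1KD against 6.9 and 7.2 in NMuMG polysomes (difference 5.35, SE 0.136, adjusted p = 1.305e-13). The muscle-associated genes among these were Acta1 (skeletal alpha-actin, 5.29), Fhl1 (a LIM-domain protein of muscle, 5.24), Speg (a kinase of striated muscle, 4.43) and Klhl30 (4.45). Speg has 2 other probe sets, of which 1 rose by 0.78 and 1 fell by 0.52, so its probe sets gave no single direction. Acta1 shares much of its sequence with the other actins, and cross-hybridisation of that probe set was not tested. The cathepsin inhibitor homologues Ctla2a and Ctla2b rose by 5.70 and 5.11, and as near-identical copies their signals may not be separable. The other increases were Prkd1 (protein kinase D1, 5.07), Pcolce2 (which enhances procollagen processing, 5.06), Tead2 (a DNA-binding partner of YAP, 4.64), Msrb3 (a methionine sulfoxide reductase, 4.62) and Dynap (4.51).

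Among the 15 largest decreases, Serpina1b, an alpha-1-antitrypsin gene, was at 5.67 and 6.02 in E1KD polysomes against 13.40 and 13.41 in NMuMG polysomes, a 189-fold lower signal (difference -7.56, SE 0.230, adjusted p = 9.703e-13). Ttr, the thyroid hormone carrier transthyretin, was at 3.95 and 4.01 in E1KD and 10.61 and 10.47 in NMuMG cells, and all 4 of its probe sets fell. Hpx, the haem-binding plasma protein hemopexin, was at 7.55 and 7.66 in E1KD and 12.82 and 12.76 in NMuMG cells. The E1KD arrays therefore held little or much reduced signal of transcripts that were among the brighter ones on the NMuMG arrays.

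Serpina1c fell by 6.44, and since the Serpina1 copies are close to identical their probe sets cannot be taken as separate genes. Apoc2, an apolipoprotein that activates lipoprotein lipase, fell by 3.86. Of the epithelial and metabolic genes, Lgals4 (galectin 4, a lectin of gut epithelium) was at 7.71 and 7.93 in E1KD against 13.67 and 13.65 in NMuMG cells. The rest were Sec16b (an organizer of ER exit sites, -5.63), Eva1b (-5.23), Selenbp1 (a selenium-binding protein, -4.50), Ndn (necdin, -4.46), Mettl7b (-4.13), Fam107a (-4.13), Igfbp4 (a binding protein of insulin-like growth factors, -3.88), Slco4a1 (an organic anion transporter, -3.82) and Prdx4 (the peroxiredoxin of the ER, -3.71). In Fam107a the E1KD arrays were far apart, at 4.75 and 6.19, though both were below the NMuMG values of 9.80 and 9.40. All 30 of these genes passed the test in the same direction in total RNA and in TGFβ-treated polysomes as well.

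**Figure D1:**
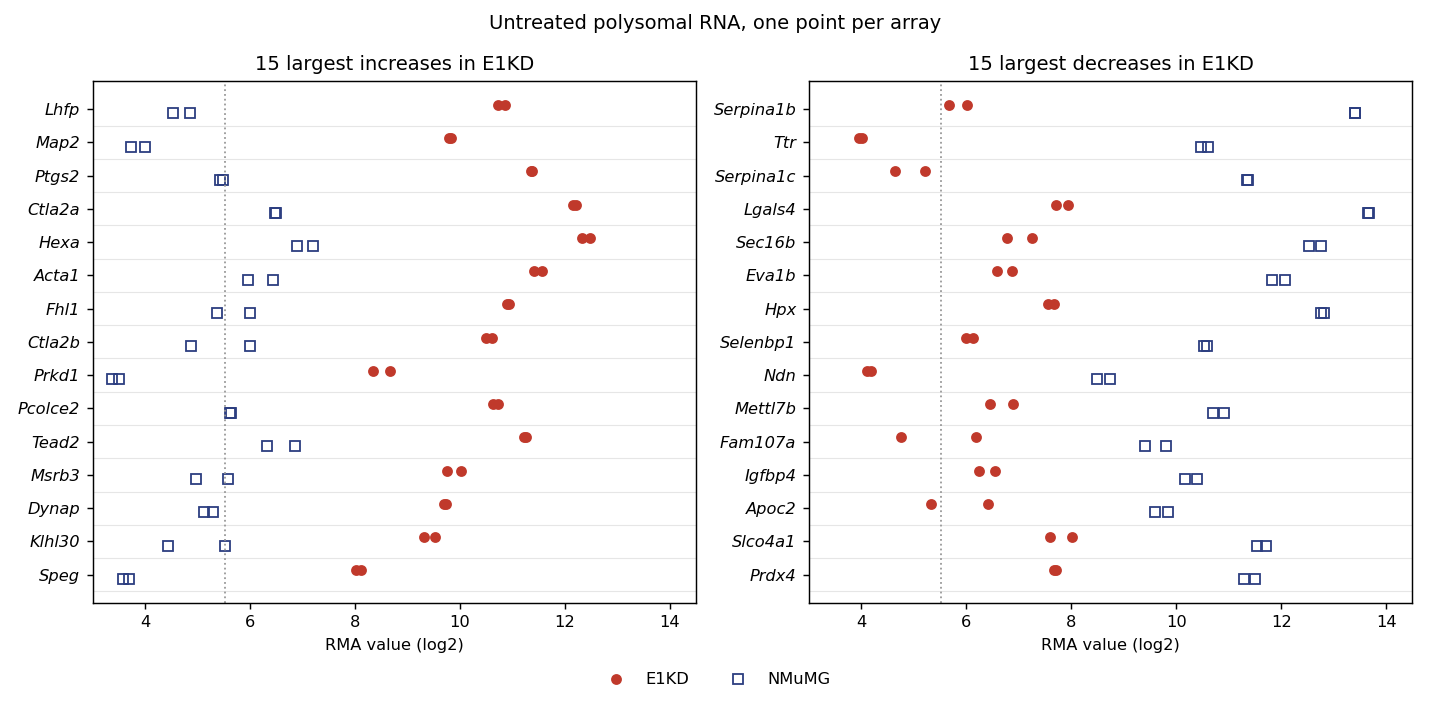
Log2 RMA value on each untreated polysomal array for the 15 largest increases (left) and the 15 largest decreases (right), filled circles for the 2 E1KD arrays and open squares for the 2 NMuMG arrays, with a dotted line at 5.52. The arrays of the lines did not overlap for any of these genes, and the widest gap between replicates was in Fam107a, at 4.75 and 6.19 in E1KD cells.

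Of the mRNAs that the study followed as targets of hnRNP E1, several were higher in E1KD polysomes. Inhba, which encodes the activin A subunit, was at 10.47 and 10.50 in E1KD against 8.16 and 8.17 in NMuMG cells (difference 2.32, SE 0.168, adjusted p = 1.19e-08). The cytoskeletal linker gene Msn (moesin) rose by 1.81 and the calpain inhibitor gene Cast (calpastatin) by 2.49. Fam3c, which encodes the secreted factor ILEI, rose by 0.54 and Eif5a2, a translation factor gene, by 0.55, and other probe sets of these genes gave 1.27 and 1.01. Without NMuMG array 2 the first probe sets, at 0.31 for Fam3c and 0.45 for Eif5a2, no longer passed.

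Dab2, an endocytic adaptor and a known target of hnRNP E1, was at 5.73 and 5.41 in E1KD and 5.38 and 5.75 in NMuMG polysomes. Its groups overlapped close to 5.52, so this probe set gave no measurable difference (0.01, SE 0.271, adjusted p = 0.989). The 6 probe sets of Egfr, the EGF receptor, ran from -1.29 to 1.15 and gave no single direction. Of the 36 genes that the study listed as a signature, 29 were higher and 3 lower (median 1.06). That list was chosen by the study on these arrays and is not independent evidence of its direction.

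Transcription factors of EMT moved in both directions. Zeb2, a repressor of epithelial genes, was at 9.12 and 8.61 in E1KD against 5.10 and 5.09 in NMuMG polysomes (difference 3.77), while of its 3 other probe sets 1 rose by 2.7 and the others, at -0.06 and -0.07, did not pass. Snai2 (Slug) was at 11.17 and 11.27 in E1KD and 8.96 and 8.45 in NMuMG cells (difference 2.52), and Zeb1 rose by 1.35. Snai1 (Snail), near the low end of the scale, was at 5.62 and 5.28 in E1KD and 6.18 and 6.36 in NMuMG cells and fell by 0.82. In all, 5 of 9 measured factors rose (55.6%) and 3 fell (33.3%), with a median of 0.49, against 28.7% and 25.8% of all genes. The count depended on the probe set used. With a gene called only where most of its probe sets were called in that direction, 2 rose and 3 fell (median 0.37).

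Most mesenchymal genes measured were higher, 7 of 12 higher and 1 lower with a median of 0.73. Fn1, fibronectin, was at 12.38 and 12.35 in E1KD against 8.57 and 8.38 in NMuMG polysomes, a 14.8-fold difference (3.89, SE 0.112, adjusted p = 4.718e-13). S100a4 rose by 2.28, N-cadherin (Cdh2) by 1.29 and 2.28 on its 2 probe sets, and vimentin (Vim), already bright in NMuMG cells, by 0.42. In a list of 26 TGFβ-induced genes, 16 were higher and 2 lower (median 0.93) although no TGFβ was added. Among the higher were Acta2 (smooth muscle actin, 3.37), Jun (an AP-1 transcription factor, 3.10), Ak1 (adenylate kinase, 3.02) and Tagln (transgelin, 2.72). The members were picked when earlier results of these data were known, so this count is not independent evidence of a TGFβ-like state. Id2 and Id1, inhibitors of differentiation that TGFβ is known to repress in epithelial cells, fell by 2.57 and 1.80.

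Junction and epithelial genes did not fall as a group: 11 of 30 were higher (36.7%) and 8 lower (26.7%), with a median of 0.33. These shares were not far from the 28.7% higher and 25.8% lower of all genes. Without NMuMG array 2 the higher count of this list was 7 and without NMuMG array 1 it was 15, and centring the arrays on Actb and Gapdh gave 9 higher and 10 lower. E-cadherin (Cdh1), the adhesion receptor of epithelial cells, was at 11.26 and 11.27 in E1KD and 10.64 and 10.26 in NMuMG polysomes, a rise of 0.82, while in total RNA it fell by 0.59. Pkp2 (plakophilin 2 of desmosomes) rose by 2.58, Pard3 (a polarity scaffold) by 1.89 and Perp (a desmosome protein) by 1.31. The decreases were led by Muc1 (an apical mucin), at 8.97 and 9.24 in E1KD against 11.87 and 11.79 in NMuMG cells, Crb3 (an apical polarity protein), at 6.97 and 7.97 against 9.67 and 9.36, and the tight junction gene Cldn4 (-1.31). The keratin gene Krt7 fell by 3.25, while of 11 keratin and intermediate filament genes 4 were higher and 3 lower (median 0.04).

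ZEB and Snail factors are known to bind the E-box CACCTG, so promoters of the junction genes were searched for these letters. The window ran from 250 bases before to 50 after each RefSeq transcription start (GRCm38.p6), and both strands were read. The letters were found in 14 of 22 junction genes with a promoter (63.6%), against 22.6% of 27025 genes in all. Of the 14 genes with a match 2 were higher and 6 lower (median difference -0.46), and of the 8 without 2 were higher and 2 lower (median 0.39). The rest of the 30 measured junction genes had no window and are in neither count, Cdh1, Pkp2 and Perp, which rose, among them. Of all 30, 11 were higher and 8 lower, so the genes without a window held most of the increases and no decrease. Whether a match goes with the direction of a gene was not tested. The motif was picked after values had been seen, and a match is a description, not a bound site. The windows below are from 6 genes whose signal fell and, for contrast, from Pard3, whose signal rose, with the 6 motif letters or their reverse complement in capitals. Lsr (difference -1.15), Ocln (-1.06) and Spint2 (-0.59) are shown because of their match, chosen after their values were seen.
Crb3, chr17:57062073-57062098, plus strand: cctgtgcttaCACCTGctcatttccg
Muc1, chr3:89228976-89229001, plus strand: tgttacctgtCACCTGctctgactgt
Cldn4, chr5:134946933-134946958, minus strand: ttaactgcagCACCTGtggccgccct
Ocln, chr13:100552551-100552576, minus strand: aggggctcggCAGGTGggtcccagcg
Lsr, chr7:30973523-30973548, minus strand: ggcaggagcgCACCTGagtcagccca
Spint2, chr7:29281971-29281996, minus strand: cccgccccgcCAGGTGcgccccaccc
Pard3, chr8:127299382-127299407, plus strand: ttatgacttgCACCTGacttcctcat

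Actin and contractility genes showed a broad increase, 46 of 74 higher and 9 lower (median 0.70), against 24 higher and 13 lower of the same genes in total RNA (median 0.07), where 15.8% of all probe sets were higher and 13.5% lower. Gsn, which severs and caps actin filaments, was at 12.62 and 12.58 in E1KD against 9.40 and 9.32 in NMuMG polysomes (difference 3.24, SE 0.083, adjusted p = 1.348e-13). Vcl (vinculin, an adhesion linker) was at 11.24 and 11.25 in E1KD and 8.43 and 8.05 in NMuMG cells. The integrin beta 1 subunit gene Itgb1, a receptor for fibronectin, was at 11.02 and 11.18 in E1KD and 7.86 and 7.76 in NMuMG polysomes, a rise of 3.29 against 0.91 in total RNA. Of the 15 integrins measured, 4 were higher (26.7%) and 3 lower (20%), with a median of 0.07, against 28.7% and 25.8% of all genes. Against the direction of the actin list, Vil1 (villin, an actin bundler of microvilli) fell by 2.77.

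Chaperones, aminoacyl-tRNA synthetases and proteasome subunits were mostly higher in E1KD polysomes. Of 29 chaperones, 23 were higher and 0 lower (median 0.74). Hspa9, the mitochondrial Hsp70, was at 12.53 and 12.36 in E1KD and 10.09 and 10.19 in NMuMG polysomes, and its total RNA difference of 0.26 did not pass the test. Hspa4 (an Hsp70 exchange factor) rose by 1.75 and Dnaja1 (an Hsp40 cochaperone) by 1.97. Hspb8, a small heat shock protein, rose by 4.07 and, unlike these, by a similar 4.70 in total RNA.

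Of 19 cytosolic aminoacyl-tRNA synthetases, which charge tRNAs for translation, 16 were higher and 1 was lower (median 0.99). Tars, the threonine enzyme, was at 11.77 and 11.89 in E1KD against 8.82 and 8.66 in NMuMG polysomes (difference 3.09, SE 0.187), and Rars and Eprs rose by 2.40 and 2.10. Of 36 proteasome subunits 26 were higher and 3 lower (median 0.62), while in total RNA 4 were higher and 3 lower. Psmd1, a large subunit of the regulatory particle, was at 11.34 and 11.29 in E1KD and 8.91 and 8.83 in NMuMG polysomes. In total RNA of the same cells it was at 11.76 and 11.79 in E1KD and 11.73 and 11.85 in NMuMG, so there the groups overlapped. Psmc1, an ATPase subunit, rose by 3.26 in polysomes and by 0.71 in total RNA.

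Ribosome biogenesis factors (33 higher and 12 lower of 61, median 0.43) and splicing factors with other hnRNPs (40 higher and 14 lower of 81, median 0.35) leaned the same way. In total RNA the splicing list ran the other way, 2 higher and 25 lower. Nop14 and Nop58, which assemble the small subunit and box C/D particles, rose by 2.41 and 2.17 and did not pass in total RNA. Translation initiation factors were higher more often than lower, 23 against 10 of 44 (median 0.27), with Paip1 (a poly(A)-binding protein partner, 2.27) among the increases. Cytosolic ribosomal proteins were nearly level, 4 higher and 3 lower of 45 (median -0.01), and their lower count was 21 with the arrays centred on Actb and Gapdh. Mitochondrial ribosomal proteins were lower more often than higher, 35 against 18 of 75 (median -0.25), from -1.26 for Mrpl50 to 2.73 for Mrpl1, and in a fit of only the arrays compared 16 against 11.

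**Figure D2:**
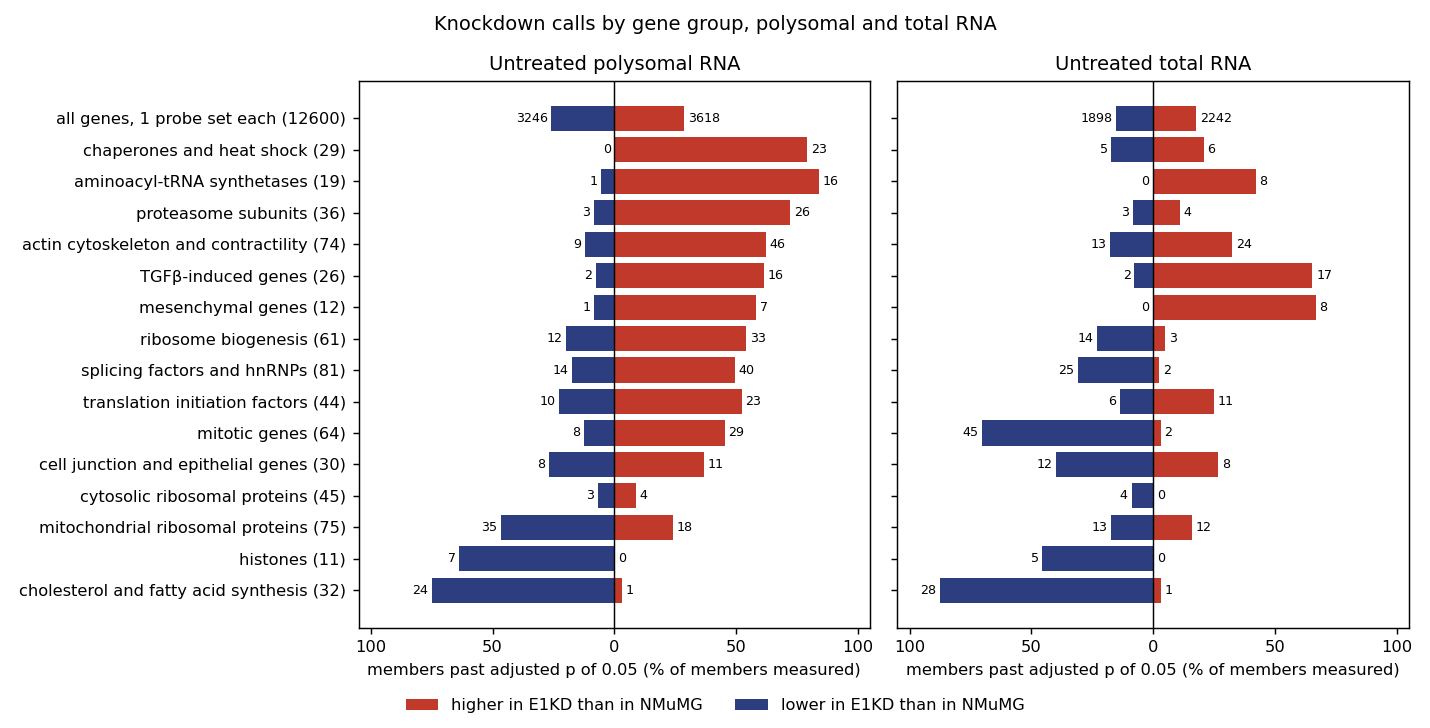
Percent of a list's measured members higher (right of 0) or lower (left of 0) in E1KD than in NMuMG cells at an adjusted p under 0.05 in untreated polysomal RNA and in untreated total RNA, with the number of genes at each bar and the number measured in brackets. Chaperones, proteasome subunits and mitotic genes lean to the higher side in polysomal RNA, with 23, 26 and 29 higher there against 6, 4 and 2 in total RNA, while cholesterol genes lie on the lower side in both.

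Mitotic genes showed opposite directions in the polysomal pool and in total RNA. Of 64, 29 were higher and 8 lower in E1KD polysomes (median 0.31), and 2 were higher and 45 lower in E1KD total RNA (median -0.71). The polysomal counts were 20 higher and 12 lower (median 0.13) with the arrays centred on Actb and Gapdh, and 19 higher and 3 lower in a fit of only the arrays compared. Smc4, a condensin subunit, was at 10.85 and 10.98 in E1KD against 8.61 and 8.21 in NMuMG polysomes. In total RNA it was at 10.63 and 10.73 in E1KD against 11.41 and 11.38 in NMuMG cells, a decrease. The test of the polysomal minus the total difference, in which 20% of all probe sets were higher and 14.6% lower, called 42 of the 64 higher and 0 lower (median 1.02), and under the 3 other scalings 39 to 42 higher and 0 lower. Bub1, a spindle checkpoint kinase, rose by 2.20 in polysomes, and the test gave 2.88 (SE 0.440, adjusted p = 0.000111) between the pools.

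The same test called 21 of 29 chaperones, 22 of 36 proteasome subunits, 33 of 61 ribosome biogenesis factors, 42 of 81 splicing factors and 39 of 74 actin genes higher, with 2, 3, 5, 1 and 5 lower. Of 19 synthetases it called 9 higher and 2 lower, of 26 TGFβ-induced genes 10 and 5, and of 12 mesenchymal genes 4 and 2 (median 0.0). With the arrays centred on Actb and Gapdh, the counts of the first 5 lists were 16, 19, 24, 32 and 25 higher, with 4, 6, 9, 10 and 10 lower. Among single genes, S100a8, a calcium-binding protein of inflammation, gave the largest value, 8.29 (SE 0.214, adjusted p = 9.89e-13). It was at 8.22 and 8.49 in E1KD and 7.59 and 7.21 in NMuMG polysomes, but in total RNA at 5.10 and 4.91 in E1KD and 12.34 and 12.34 in NMuMG cells. In S100a8 the value came mainly from the fall in total RNA.

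In the next genes in that order total RNA was nearly alike in the lines and the NMuMG polysomes were low. Smarca5, an ISWI chromatin remodeller, was at 10.81 and 10.34 in E1KD against 6.28 and 6.88 in NMuMG polysomes, and in total RNA at 11.10 and 10.82 in E1KD against 10.85 and 10.66 in NMuMG cells. Rdx, the membrane linker radixin, was at 10.66 and 10.40 in E1KD and 6.57 and 6.97 in NMuMG polysomes, with total RNA of 10.69 and 10.50 in E1KD and 10.51 and 10.40 in NMuMG cells. The kinesin gene Kif5b gave 3.75, as did the chromosome maintenance gene Smc5, and the actin-associated genes Pdlim5 and Lima1 were also among the leading 8.

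In the opposite direction, Slc38a1, a glutamine transporter, differed less in polysomes than in total RNA (-3.64, SE 0.343, adjusted p = 1.47e-06). It was at 6.83 and 6.70 in E1KD and 5.27 and 5.55 in NMuMG polysomes, and in total RNA at 9.50 and 9.58 in E1KD and 4.76 and 4.34 in NMuMG cells. Hs6st2, which sulfates heparan sulfate, behaved likewise (-3.02), with 9.66 and 9.55 in E1KD against 6.75 and 6.29 in NMuMG polysomes and a total RNA difference of 6.11. The unfolded protein and stress response list was split in polysomes, 15 higher and 16 lower of 40, but 23 higher and 4 lower in total RNA. Sdf2l1, an ER chaperone cofactor, was at 10.84 and 11.06 in E1KD and 12.54 and 12.35 in NMuMG polysomes, and in total RNA at 12.18 and 12.17 in E1KD and 10.83 and 10.94 in NMuMG cells.

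**Figure D3:**
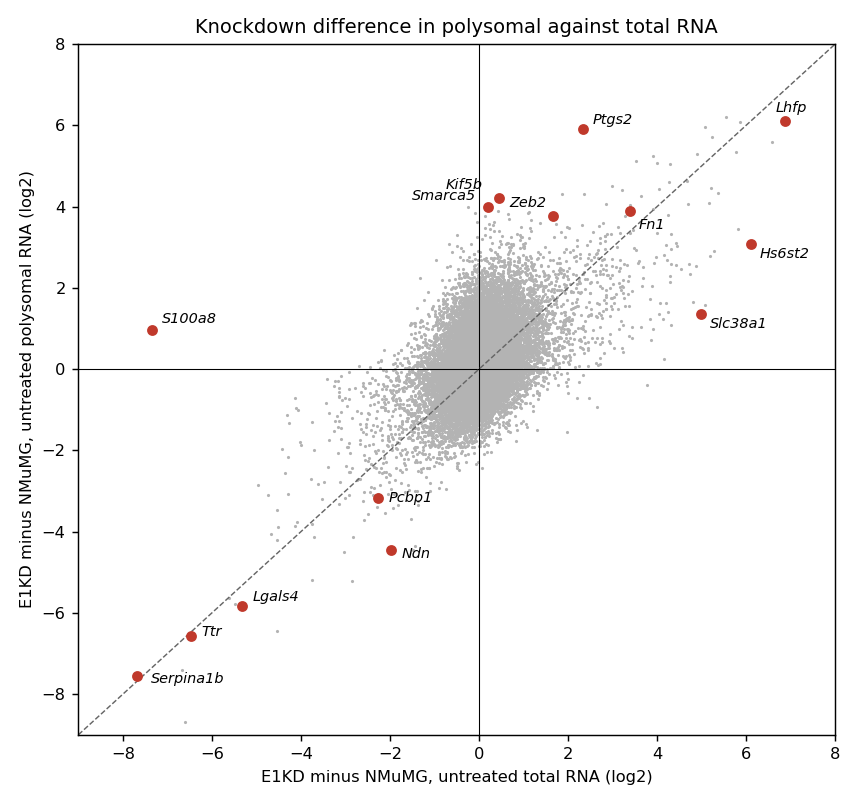
Log2 difference of E1KD minus NMuMG in untreated polysomal RNA (vertical axis) against that in untreated total RNA (horizontal axis), 1 grey point per probe set, with 14 genes in red and a dashed line of equal differences. The differences correlated at r = 0.497 over 25432 probe sets, and S100a8 lies far left of 0 for total RNA and slightly above 0 for polysomal RNA.

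Across all probe sets the polysomal and total differences correlated at r = 0.497, with no array in common, though probe sets are not independent. Of the 7004 probe sets higher in polysomes, 33.5% were also higher in total RNA and 7.55% lower there. Of the 5628 lower in polysomes, 29.3% were also lower in total RNA. In the TGFβ-treated polysomal pool, where 23.2% of all probe sets were higher in E1KD and 19.1% lower, 65.3% of the higher and 53.5% of the lower were called in the same direction. The monosomal pool, where 56.8% of all probe sets differed between the lines, shared little, with a correlation of 0.095. The polysomal minus the monosomal difference was past the threshold for 61.8% of all probe sets, but the untreated NMuMG monosomal arrays stood close to total RNA (r = 0.932, against 0.887 with the polysomal pool), so these values rest on a group that stands apart from the other monosomal arrays. The 3′ minus 5′ signal of Gapdh was 0.51 and 0.45 on these 2 arrays, against at most 0.13 on every other of the 24. Whether they hold the pool on their label was not tested.

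Over all probe sets tested, the polysomal mean correlated with untreated total RNA of the same line at 0.896 in E1KD and 0.81 in NMuMG cells. With the untreated monosomal mean of the same line it correlated at 0.965 in E1KD and 0.887 in NMuMG cells. How well the gradient separated the pools was not tested. Of the 12 condition means of a probe set, the lowest was in untreated NMuMG polysomes for 10.2% and the highest for 9.38%.

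**Figure D4:**
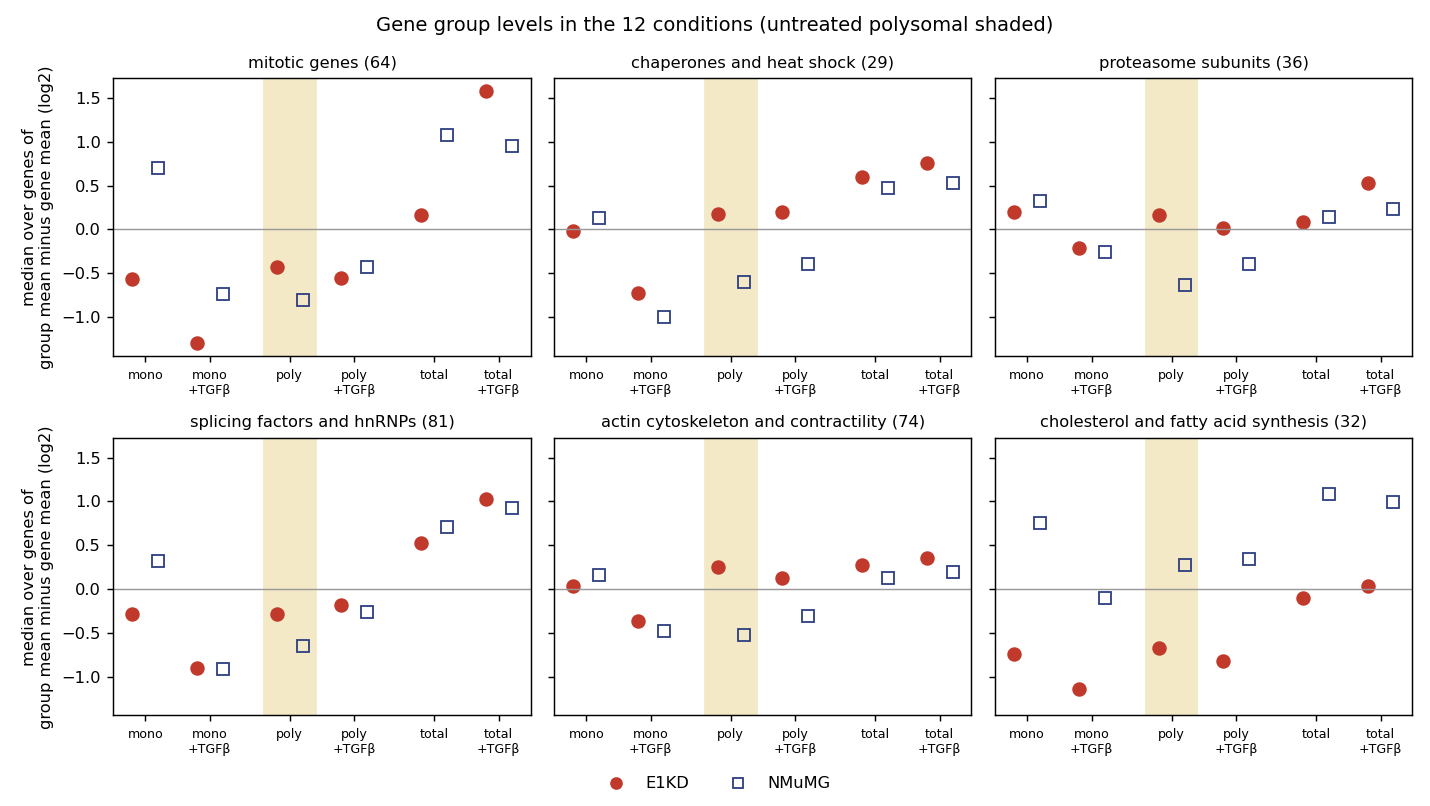
Median over a list's genes of the log2 group mean relative to the gene's mean over the 12 conditions, for 6 lists, with E1KD (filled) left of NMuMG (open) in each RNA pool and treatment and the untreated polysomal pool shaded. In that pool proteasome subunits were at 0.17 in E1KD and -0.64 in NMuMG cells and actin genes at 0.25 in E1KD and -0.52 in NMuMG cells, the NMuMG values being the lowest of the 12 for both lists, while cholesterol genes were at -0.67 in E1KD and 0.27 in NMuMG cells.

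The difference was also related to how strongly an mRNA was represented in polysomes. The mean polysomal minus total signal of the TGFβ-treated arrays of both lines, none of which enter the untreated difference, correlated with that difference at r = -0.344 (rho = -0.401) over 25432 probe sets. In the fifth of probe sets with the lowest such value the median difference was 0.46, and 46.5% were higher in E1KD and 7.63% lower. In the fifth with the highest it was -0.30, and 10.2% were higher and 36.2% lower. Polysomal signal departed from total RNA by an SD of 0.991 in E1KD and of 1.327 in NMuMG cells. By list, the median of this value was -1.63 for mitotic genes, -1.13 for splicing factors, -1.05 for the synthetases, -0.70 for proteasome subunits and -0.68 for chaperones, against 0.07 for all genes. It was also -0.68 for the cholesterol list, which was lower in E1KD polysomes, and -1.63 for chromatin remodellers, whose median difference was 0.10. The part of this relation in the lists' differences was not tested.

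Cholesterol and fatty acid synthesis genes were mostly lower in E1KD polysomes, with 24 of 32 lower, 1 higher and a median of -0.97. The list was also lower in total RNA (28 of 32, median -0.97) and in TGFβ-treated polysomes (29 of 32, median -1.08). These genes are known to be driven together by the sterol-sensing SREBP factors. Insig1, which retains the SREBP complex in the ER and is itself a target, was at 7.39 and 7.56 in E1KD against 10.21 and 10.03 in NMuMG polysomes (difference -2.65, SE 0.263, adjusted p = 4.01e-07). Fdps (farnesyl diphosphate synthase) was at 11.33 and 11.39 in E1KD and 13.48 and 13.31 in NMuMG cells, and Nsdhl at 8.16 and 8.16 in E1KD and 10.17 and 10.23 in NMuMG cells.

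Mvd, which makes isopentenyl diphosphate, fell further in polysomes than in total RNA, by 2.08 against 0.72. Dhcr7, the last enzyme towards cholesterol, fell by 1.80 and Fasn, fatty acid synthase, by 1.70. The regulators Srebf1 and Srebf2 fell by 0.97 each. The polysomal minus total test called 8 of the 32 higher (25%) and 6 lower (18.8%), near the 20.2% and 17.6% of all genes. Cyp51 and Sqle, enzymes of sterol synthesis picked after their values were seen, fell by 2.08 and 1.31 in total RNA but were at -0.18 and 0.34 in polysomes, where neither passed the test. The promoters of 26 genes of the list were searched for the full sterol regulatory element on both strands. It was found in 0 of these 26, against 0.27% of all 27025 genes, which says only that its letters are absent from the windows. A shorter core, TCACNCCAC, searched after that, was found in Hmgcs1 alone, the HMG-CoA synthase gene that fell by 1.12, against 1.44% of all genes, shown with the core in capitals.
Hmgcs1, chr13:119690204-119690232, plus strand: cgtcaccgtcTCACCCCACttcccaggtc

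**Figure D5:**
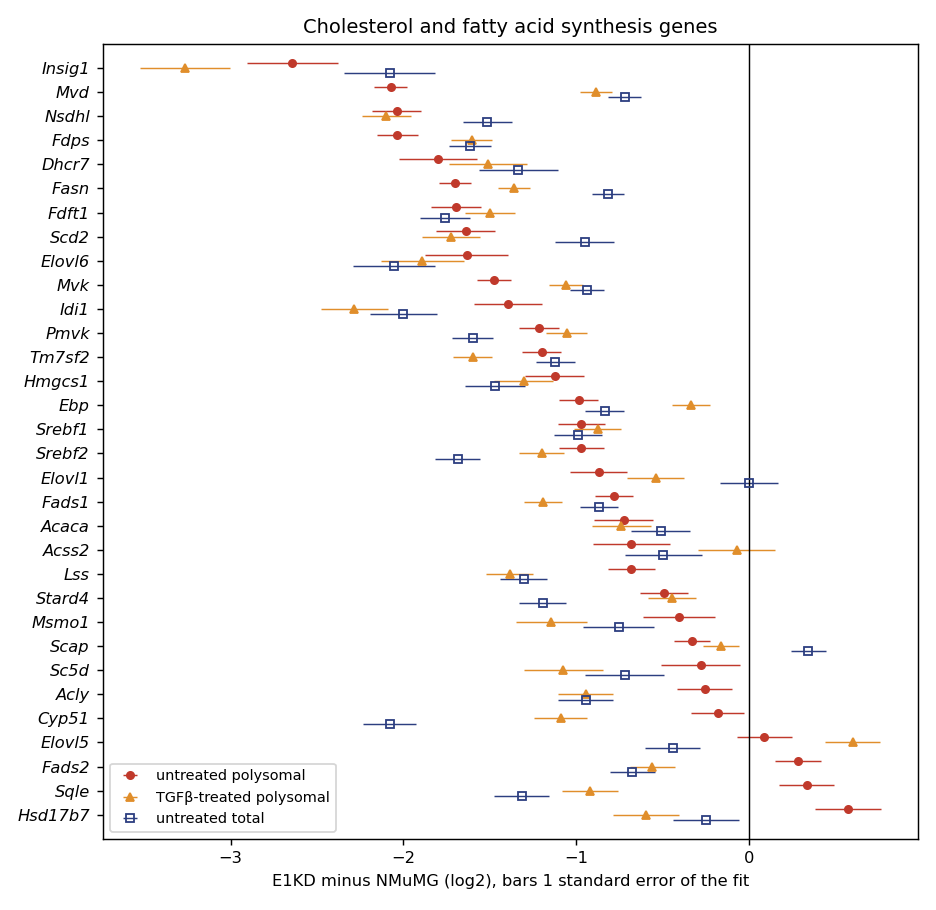
Log2 difference of E1KD minus NMuMG for the 32 genes of cholesterol and fatty acid synthesis in untreated polysomal, TGFβ-treated polysomal and untreated total RNA, with bars of 1 standard error of the fit. Most points lie left of 0 in all 3, with Insig1 at -2.65 in untreated polysomal RNA, and Cyp51 and Sqle are examples of genes left of 0 in total RNA but near or above it in untreated polysomal RNA.

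The knockdown difference changed with TGFβ for part of these genes. The difference in untreated minus that in TGFβ-treated polysomes was past the threshold for 2420 probe sets upwards (9.52%) and 1620 downwards (6.37%). Of the 26 TGFβ-induced genes it called 14 upwards and 1 downwards (median 0.68), and of 64 mitotic genes 26 upwards and 3 downwards. Klhl30, listed among TGFβ-induced genes, showed this most plainly: it was at 9.32 and 9.53 in E1KD and 4.44 and 5.52 in NMuMG untreated polysomes, and at 10.17 and 10.25 in E1KD and 9.06 and 9.03 in NMuMG treated polysomes. The NMuMG cells were thus near the E1KD level only after treatment. A rise with TGFβ in NMuMG polysomes moves the untreated minus treated value upwards. The TGFβ-induced list was chosen with earlier results of these data known, so its count is not independent evidence.

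Fn1 was at 11.78 and 11.83 in E1KD and 9.77 and 9.77 in NMuMG treated polysomes, a difference of 2.04 against 3.89 without treatment. S100a8 again gave the largest value (5.4, SE 0.214, adjusted p = 8.10e-10), with 5.58 and 5.98 in E1KD and 10.23 and 10.21 in NMuMG treated polysomes. Egr1, an immediate early transcription factor, gave the largest opposite value (-3.44). It was at 6.72 and 6.77 in E1KD and 8.02 and 7.73 in NMuMG untreated polysomes, and at 8.31 and 8.38 in E1KD and 6.19 and 5.89 in NMuMG treated polysomes, so the direction of the knockdown difference turned.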

How the data were processed

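RNA was hybridised to Affymetrix mouse genome arrays. The deposited values are log2 signals that the authors made by robust multi-array averaging (RMA) in Affymetrix Expression Console, whose notes also name MAS5. Detection calls were not used here. The deposited scale was kept, 64 control probe sets were left out, and a linear model of 12 conditions was fitted to 24 arrays (12 residual degrees of freedom) with limma 3.58.1 in R 4.3.3, with Benjamini-Hochberg adjustment over 25432 probe sets. The 8 immunoprecipitation arrays entered only the alternative with all 32. The fitting code was tested on simulated data.

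A gene's list value is that of its probe set of highest mean. 22090 probe sets carried 1 gene symbol, 621 several and 2721 none. Named genes were the family and the study's genes, the 15 largest increases and decreases with separate arrays, the 8 largest of each interaction, and up to 6 called and 2 uncalled members of a list. The members and lists were chosen with earlier results of these data known. Only 2 arrays a group limit the precision. Alternatives were scaling, filter, fit samples, array weights, replicate block and leaving out arrays. Promoters came from RefSeq, GRCm38.p6.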

Additional observations from a re-analysis of the deposited data

Results flagged for a closer look

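For 17 of the 30 genes with the largest increases and decreases, the knockdown difference in untreated polysomes was past the threshold against that in TGFβ-treated polysomes (limma, adjusted over all probe sets). Of all probe sets, 15.9% were past it in the same test. The 30 genes were chosen by the untreated difference, which is itself part of the value tested. That choice favours differences that are larger without treatment, so the count of 17 is a description and not independent evidence. All 17 kept the same direction after treatment, 8 as increases and 9 as decreases.

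The change is given as the untreated minus the treated difference. It was 2.04 for Ptgs2 (5.90 untreated, 3.87 treated), 1.72 for Ctla2a, 2.31 for Ctla2b, 2.29 for Pcolce2, 1.34 for Dynap and 3.28 for Klhl30, whose increases were larger without treatment. For Hexa it was -0.79 and for Tead2 -1.61, whose increases were larger with treatment. For Ttr it was -2.23 (-6.56 untreated, -4.33 treated), for Serpina1c -1.77, for Hpx -2.15, for Selenbp1 -1.90, for Mettl7b -1.96 and for Fam107a -2.38, whose decreases were larger without treatment. For Lgals4 it was 1.53, for Igfbp4 2.40 and for Prdx4 2.74, whose decreases were larger with treatment. The adjusted p-values ran from 9.379e-08 (Prdx4) to 0.0111 (Hexa).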

How the results depend on the processing

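No call of the untreated polysomal comparison turned to the opposite direction under any alternative. The count of 12632 probe sets was 7328 in a fit with a replicate block on only the arrays compared and 4957 with a 2-fold change required, where 3498 were higher and 1459 lower. The lower count of 5628 was 3244 in a fit of only the arrays compared, 2613 with the replicate block in that fit and 3380 with the block crossed (5437 higher, against 4715 uncrossed), an alternative added after the data were seen. In the fit of 24 arrays the replicate block gave 7062 higher and 5709 lower. The deviations of same-numbered arrays correlated at -0.19 in the groups compared and at -0.383 to 0.323 over all pairs of groups in the fit, and the labels tie the numbers to nothing shared, so the numbers were not used to pair samples. Leaving out single arrays gave 10687 to 12060 probe sets, 5968 to 7003 higher and 4713 to 5057 lower.

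Higher calls were 55.4% of calls as deposited, 47.6% with quantile normalization (6324 higher, 6951 lower), 46.6% with median centring (6238, 7145) and 41.2% with centring on Actb and Gapdh (5808, 8298), as the median of all probe sets was -0.025, -0.093, -0.135 and -0.199. Of list members called, 944 became 619 in a fit of only the arrays compared and 518 with the replicate block in that fit.

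For polysomal minus total, centring on Actb and Gapdh gave 6084 lower against 3711, and single arrays left out gave 7021 to 8896 in all, 4141 to 5374 higher and 2787 to 3522 lower. For polysomal minus monosomal, median centring gave 10935 lower against 6531. Single arrays left out gave 13520 to 15599 in all there, 8270 to 9282 higher and 5250 to 6317 lower. For untreated minus TGFβ-treated, only the arrays compared gave 1040 in all, 659 higher and 381 lower against 4040, 2420 and 1620. Array weights gave 1027 lower and centring on Actb and Gapdh 2631. Without E1KD treated array 1 the higher count was 1495, and single arrays left out gave 2808 to 4414 in all, 1495 to 2900 higher and 1186 to 1556 lower. The causes were not tested.

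Values that turned sign belonged to probe sets that did not pass. A second Pcbp2 probe set was at -0.005 under quantile normalization, and at -0.029 when centred on Actb and Gapdh. Dab2 was at -0.105 with median centring and -0.169 centred on Actb and Gapdh. With single arrays left out, Dab2 ran from -0.18 to 0.19, 2 Pcbp4 probe sets from -0.14 to 0.05 and from -0.125 to 0.085, 2 Hnrnpk probe sets from -0.70 to 0.00 and from -0.185 to 0.035, 2 Egfr probe sets from -0.07 to 0.79 and from -0.34 to 0.05, and 2 Zeb2 probe sets from -0.27 to 0.16 and from -0.22 to 0.09. Signal near 5.52 and 2 arrays a group limit what could be detected.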

Other observations

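Lysosomal genes were split in E1KD polysomes, with 21 of 48 higher and 10 lower (median 0.18). The counts were 19 higher and 20 lower (median 0.01) with the arrays centred on Actb and Gapdh, and 16 higher and 5 lower in a fit of only the arrays compared. Ctsh, a lysosomal cysteine protease, was at 9.56 and 9.77 in E1KD against 5.75 and 5.70 in NMuMG polysomes, and Atp6v1a, a subunit of the proton pump, rose by 1.99. Naglu and Ctsa, a glucosaminidase and a carboxypeptidase, fell by 1.76 and 1.52. Histone genes were lower in 7 of 11 and higher in 0, though the lower count was between 3 and 8 when single arrays were left out.

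Chemokines and cytokines were mixed, 6 higher and 7 lower of 21. Without E1KD array 1 the counts were 4 and 4, without E1KD array 2 they were 3 and 6, without NMuMG array 1 they were 4 and 7, and without NMuMG array 2 they were 4 and 5. Cxcl5, a neutrophil attractant, was at 6.16 and 6.78 in E1KD and 9.62 and 9.67 in NMuMG polysomes, and the alarmin gene Il33 was at 5.37 and 5.85 in E1KD and 8.18 and 8.14 in NMuMG cells. Among matrix genes, 13 of 33 were higher and 6 lower. Fbln2 (fibulin 2) rose by 2.66, while Lama5, a laminin chain of basement membranes, was at 8.14 and 8.03 in E1KD and 10.65 and 10.51 in NMuMG polysomes and fell by 2.50. Aldh1a1, a retinaldehyde dehydrogenase, rose by 2.42 in polysomes and did not pass in total RNA (0.55).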
